A study of Homo sapiens with 18 samples.

Results

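The respiratory chain genes were the 104 of 20555 rows of the expression table whose gene symbol has a prefix of the subunits of complexes I to V: 13 genes of the mitochondrial genome (7 of complex I, 1 of complex III, 3 of complex IV and 2 of complex V) and 91 nuclear rows (40 of complex I, 5 of complex II, 9 of complex III, 17 of complex IV and 20 of complex V). The prefix also took in a few rows that are not subunits of the complex they were counted with, such as NDUFA4, now counted with complex IV, and ATP5SL (now DMAC2), an assembly factor of complex I. They were followed in 18 tumors of MSTO-211H [sh-YAP1], a human malignant mesothelioma line that carries a doxycycline-dependent short hairpin against YAP1 and was grown subcutaneously, mixed with Matrigel, in SCID mice. All animals drank 5% glucose until the tumors reached the size set for the start. Tumors were taken then (0h, glucose only, n = 5), or after glucose with doxycycline in the drinking water for 24 hours (24h, n = 4), 96 hours (96h, n = 5) or, as the labels have it, 216 hours (216h, n = 4). The study's text describes the last time point as 96 hours of doxycycline and then days without it, and the sources used here do not settle which was done. Each time point was its own cage group and its own set of animals, and no tumor without the hairpin received doxycycline, so time, cage, induction of the hairpin and doxycycline itself cannot be told apart.

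The respiratory chain passes electrons from NADH (complex I) and succinate (complex II) through complex III and cytochrome c to complex IV, which reduces oxygen, and the proton gradient this builds drives ATP synthase (complex V). Its subunits come from both genomes of the cell. The mitochondrial genome is transcribed from both strands as long precursors that are cut into single messengers, and it encodes core, membrane-bound subunits. The nuclear genes encode the other catalytic subunits and all accessory ones, are transcribed singly and are imported as proteins, and complex II is wholly nuclear. Doxycycline, used here as the inducer, is a tetracycline antibiotic, a class known to act on mitochondrial ribosomes as well as on bacterial ones.

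Values were FPKM, reads scaled by gene length and by the library's reads. The libraries were enriched with capture probes, whose efficiency differs between genes, so levels of different genes are set side by side below only as the table gives them. Depth is unknown, and no interval for counting error can be given. The 11379 genes that reached 1 FPKM in 4 or more tumors were tested by limma on log2(FPKM + 1), with Benjamini-Hochberg adjusted p-values over all of them, and a gene was called, or said to rise or fall, at an adjusted p under 0.05. YAP1, the target of the hairpin, was at 4.82 to 10.2 FPKM at 0h, 4.60 to 8.16 at 24h, 3.39 to 6.81 at 96h and 5.60 to 8.85 at 216h, and did not pass the test at any time (at 96h -0.52 on the log2 scale, adjusted p = 0.221). The study reports lower YAP1 mRNA by quantitative PCR at every time point after doxycycline began, and lower levels of YAP1 target genes. At 216h the FPKM values of YAP1 were not lower than at 0h (0.000410 on the log2 scale, adjusted p = 0.999 by limma), unlike the quantitative PCR. The reason for this difference, and what the FPKM values say of the action of the hairpin, was not tested. Of 12 mesothelioma markers, VIM, KRT8 and KRT18 were abundant, MSLN and CALB2 were low, WT1 did not exceed 0.443 FPKM and PDPN was listed at 0 in all 18 tumors. Between 4767 and 6491 genes were listed at 0 in a tumor, with all 96h tumors below all 0h tumors (4767 to 4873 against 6000 to 6174). How reads from the mouse host were treated is not given in the sources used here.

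A pair of mitochondrial genes shares bases with its neighbour, which bears on how reads can be divided between them. The sequences are shown because the first of them holds the highest FPKM of the whole table. They are the annotated transcripts on GRCh38 (GENCODE 29), MT-ATP8 at chrM:8366-8572 and MT-ND4L at chrM:10470-10766, both read on the plus strand, with the bases shared with MT-ATP6 (chrM:8527-9207) or MT-ND4 (chrM:10760-12137) in capitals.
MT-ATP8: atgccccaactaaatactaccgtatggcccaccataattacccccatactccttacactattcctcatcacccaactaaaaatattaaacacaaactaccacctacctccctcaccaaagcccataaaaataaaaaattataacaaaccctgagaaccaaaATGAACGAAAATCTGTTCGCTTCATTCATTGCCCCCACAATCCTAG
MT-ND4L: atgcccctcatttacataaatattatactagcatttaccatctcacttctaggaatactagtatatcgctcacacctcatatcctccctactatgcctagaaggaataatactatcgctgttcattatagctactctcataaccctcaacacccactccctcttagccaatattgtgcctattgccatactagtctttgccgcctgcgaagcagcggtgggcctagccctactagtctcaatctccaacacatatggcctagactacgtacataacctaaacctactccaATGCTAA
MT-ATP8 is 207 bases long and shares 46 of them (22.2%) with MT-ATP6, while MT-ND4L is 297 bases long and shares 7. MT-ATP8 stood 17.3 to 21.7 times above MT-ATP6 in FPKM, and MT-ND4L 2.24 to 2.81 times above MT-ND4. Both pairs are cut from the same precursor as joint messengers, so these ratios are values of the counting as deposited, and levels of these 4 genes are uncertain. The part of gene length and of shared reads in them was not tested.

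The mitochondrially encoded genes had the highest FPKM as a class. They took 79.99 to 83.8% of a tumor's FPKM sum at 0h, 80.4 to 84.8% at 24h, 77.6 to 83.3% at 96h and 74.9 to 76.0% at 216h, so all 216h tumors were below all others. MT-ATP8 alone took 47.5% to 56.5%. Median levels over the 18 tumors ran from 4683 FPKM for MT-ND6, the only one of the 13 encoded on the light strand, to 547929 FPKM for MT-ATP8. The 80 nuclear genes that could be tested had a median level of 32.7 FPKM, from 0.178 FPKM for COX6B2 to 719 FPKM for ATP5J2 (now ATP5MF, a small subunit of the membrane part of ATP synthase), against 5.09 FPKM over all 11379 genes tested.

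At 216h the transcripts of the mitochondrial genome were lower than at 0h in the values as deposited and under all other scalings but quantile normalization, which left 3 of the 13 with a positive sign. Of the 13 genes, 12 passed the test downwards and none upwards, where 3.6% of all tested genes were called lower and 19.7% higher. In the same 12 genes all 4 tumors at 216h lay below all 5 tumors at 0h. Of the 80 nuclear genes tested, 6 lay below in the same way and 0 above. The share of such genes among all tested was not computed. Without the filter on low values limma called 1 of the 13, with the same median change. The median log2 fold change was -0.43, from -0.23 for MT-ND3 to -0.63 for MT-ND2, against 0.17 over all genes tested. In bulk tumors, fewer cells of a kind and less RNA per cell cannot be told apart. Changes here and elsewhere are on the log2(FPKM + 1) scale, which hardly differs from the log2 of FPKM at these levels.

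**Figure D1:**
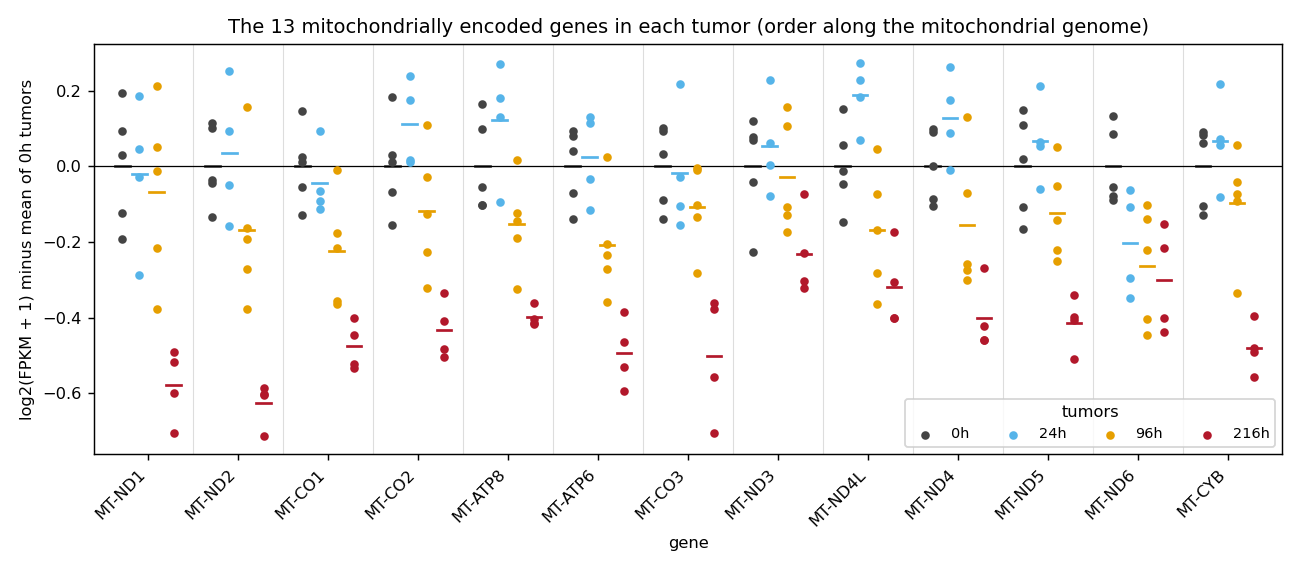
Each point is 1 tumor, with its log2(FPKM + 1) minus the mean of the 0h tumors on the vertical axis and the 13 mitochondrially encoded genes on the horizontal axis in their order along the genome; short lines are group means. In the values as deposited the 216h tumors lie below the 0h tumors in 12 genes, and overlap them in MT-ND3.

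Among the complex I genes, MT-ND2, a proton-pumping membrane subunit, was at 11655, 11590.0, 10884, 12816 and 12949 FPKM in the 0h tumors and at 7294, 7874, 7967 and 7853 FPKM in the 216h tumors. Its groups were far apart, at -0.63 ± 0.09 SE, adjusted p = 0.000173. MT-ND1, which borders the quinone site, was at 21688, 25277, 22757, 28327 and 26431 FPKM at 0h and at 15185, 17299.6, 16359.7 and 17619 FPKM at 216h (-0.58 ± 0.11 SE, adjusted p = 0.00127). These were the 2 steepest falls of the 13. MT-ND5, at the far end of the membrane arm, lay between 17694 and 22001 FPKM at 0h and between 13934 and 15682 FPKM at 216h (-0.41 ± 0.07 SE, adjusted p = 0.0008). MT-ND4, another proton pump, lay between 32787 and 37789 FPKM and then between 25645 and 29238 FPKM (-0.40 ± 0.08 SE, adjusted p = 0.00196). MT-ND4L, which shares bases with it, lay between 75377 and 92824 FPKM and then between 63229 and 73993 FPKM (-0.32 ± 0.08 SE, adjusted p = 0.0062). In these 3 genes too the highest 216h tumor was below the lowest 0h tumor.

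The remaining complex I genes moved least. MT-ND6, the light-strand gene, was at 4874, 4993, 5502, 4910.4 and 5685 FPKM at 0h and at 3826, 4660.2, 4462 and 3925 FPKM at 216h, a difference of -0.30 ± 0.09 SE, adjusted p = 0.0177, which missed the threshold without 216h replicate 1 or 216h replicate 4 (adjusted p = 0.0611 and 0.0582). It was also the only one of the 13 whose 96h tumors (3807, 4705, 4444, 4827 and 3913 FPKM) all lay below the 0h tumors, although the test at 96h was not passed (-0.26 ± 0.08 SE, adjusted p = 0.141). MT-ND3 was at 18611, 16369, 20809.5, 20094 and 20184 FPKM at 0h and at 18198, 15523, 15327 and 16319.7 FPKM at 216h. One 216h tumor, replicate 1, lay within the 0h range, and the difference of -0.23 ± 0.09 SE, adjusted p = 0.058, was not called, but was called without 216h replicate 1 or without 0h replicate 2, the lowest of the 0h tumors (adjusted p = 0.0334 and 0.0184).

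In complexes III to V all 6 mitochondrial genes fell. MT-CYB, the cytochrome b of complex III, was at 16951, 14838, 15098, 17295 and 17188 FPKM at 0h and at 11561, 11628, 11039 and 12347 FPKM at 216h, a change of -0.48 ± 0.08 SE, adjusted p = 0.000241. MT-CO1, which holds the site of oxygen reduction in complex IV, was at 24262, 21986, 23163, 26631 and 24481 FPKM at 0h and at 17655, 16744, 16624 and 18215 FPKM at 216h, a change of -0.48 ± 0.07 SE, adjusted p = 0.000173. MT-CO2, which takes electrons from cytochrome c, lay between 27742 and 35074 FPKM at 0h and between 21778 and 24507 FPKM at 216h (-0.43 ± 0.08 SE, adjusted p = 0.00111), and MT-CO3, the third core subunit, between 23894 and 28259.5 FPKM and then between 16147 and 20474 FPKM (-0.50 ± 0.09 SE, adjusted p = 0.000504). In complex V, MT-ATP6, part of the proton channel of ATP synthase, was at 31609, 29280.4, 27913, 32802 and 32509.7 FPKM at 0h and at 20365, 21301, 22291 and 23532 FPKM at 216h, a change of -0.49 ± 0.07 SE, adjusted p = 0.000183. MT-ATP8, which overlaps it, was at 547806, 548052, 566356, 659498 and 630191 FPKM at 0h and at 441832, 458047, 444776 and 440839 FPKM at 216h (-0.40 ± 0.07 SE, adjusted p = 0.000858).

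The fall was not in the nuclear genes to the same degree. Averaged over genes as log2(FPKM + 1), the mitochondrial genes were at 14.81, 14.71, 14.76, 14.93 and 14.88 in the 0h tumors and at 14.36, 14.40, 14.35 and 14.43 in the 216h tumors, whereas the 80 nuclear genes were at 5.06, 5.07, 5.03, 4.93 and 5.09 and at 4.97, 5.04, 4.99 and 5.01, within the same range. The difference of the 2 means, which no scaling factor common to a tumor changes except through the added 1, was 9.75, 9.64, 9.73, 10.00 and 9.79 at 0h, 10.05, 9.62, 9.97 and 9.69 at 24h, 9.69, 9.94, 9.78, 9.74 and 9.46 at 96h and 9.39, 9.36, 9.36 and 9.42 at 216h. The 216h tumors were the lowest 4 of the 18, with 96h replicate 5 next to them. The 96h group had the widest range, and 24h and 96h both overlapped 0h.

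**Figure D2:**
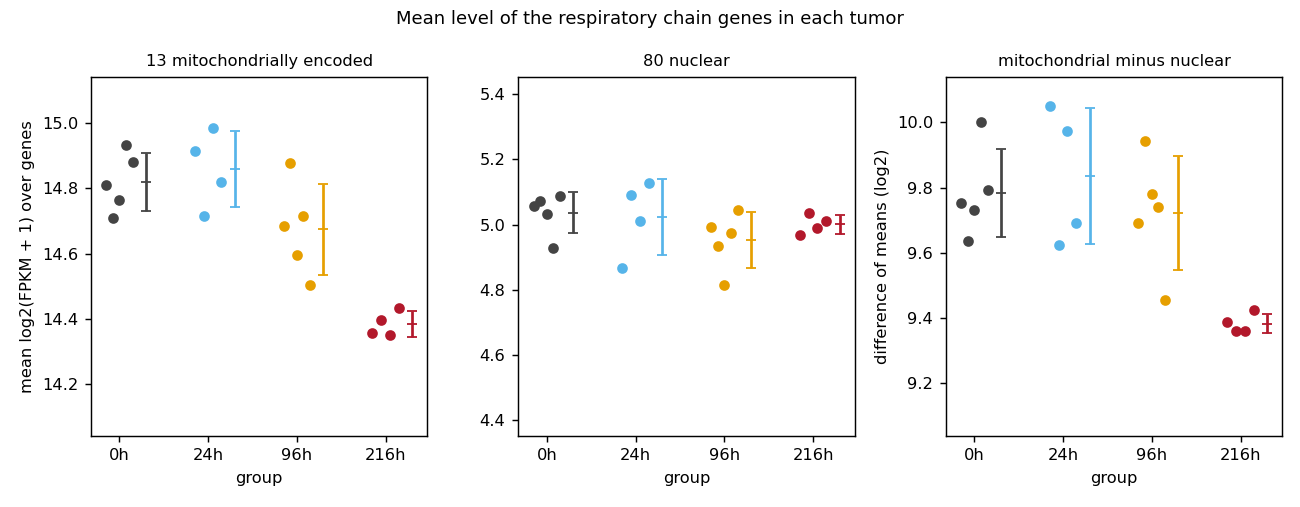
Mean log2(FPKM + 1) over the 13 mitochondrially encoded genes (left) and over the 80 nuclear genes (middle) and their difference (right), 1 point a tumor, with the group mean and SD beside them; each panel spans 1.1 log2 units. The 216h tumors stand below all others on the left and on the right, and overlap the other groups in the middle.

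The comparison was repeated within complexes. The mitochondrial mean minus the nuclear mean was 9.15 to 9.18 at 216h in complex I, against 9.37 to 9.74 at 0h and 9.20 to 9.68 at 96h. In complex V it was 10.67 to 10.81 at 216h against 10.99 to 11.40 and 10.88 to 11.27. In both, the 216h tumors lay below all others. Complex III, with MT-CYB alone, ran at 9.11 to 9.37 against 9.59 to 9.85 at 0h, and complex IV at 8.45 to 8.75 against 8.87 to 9.36. Here the 216h tumors lay below all 0h tumors, while in complex III 96h replicate 5 and in complex IV 96h replicates 4 and 5 and 24h replicate 2 lay within their range. These are means over genes chosen with earlier results known, and they carry no test.

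The size of the fall depended on the scaling between tumors. The median change of all tested genes at 216h against 0h was 0.17 as deposited, 0.07 when each tumor was rescaled to the same FPKM sum without the mitochondrial genes, and -0.04 when tumors were scaled to the same median. Under these the median change of the mitochondrial genes was -0.55 and -0.70, and all 13 were called lower. Relative to the nuclear members it stayed between -0.35 and -0.36, also with a scaling by length-weighted sum that was chosen after seeing the data. Quantile normalization, which gives each tumor the same set of values in rank order, set their median to 0 and called none of the 13, as the mitochondrial genes hold the top ranks in every tumor. With it the directions of MT-CO1, MT-CO2 and MT-ND3 flipped. Of all genes called at 216h against 0h, 84.6% were higher as deposited, 68.1% rescaled without the mitochondrial genes and 43.8% with median scaling. The same shares were 93.3%, 66.1% and 48.9% at 216h against 96h and 22.9%, 43.6% and 24.2% at 96h against 0h.

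**Figure D3:**
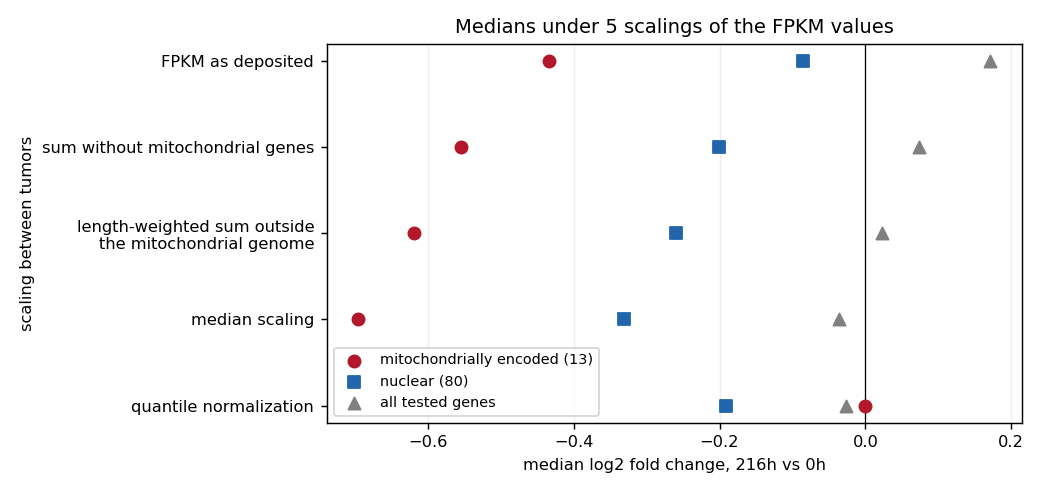
Median log2 fold change at 216h against 0h of the 13 mitochondrially encoded genes (circles), the 80 nuclear genes (squares) and all tested genes (triangles), under 5 ways to scale tumors. The circles lie left of the squares by a similar distance in 4 scalings and right of them under quantile normalization.

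Markers of host or stromal cells were also called at 216h against 0h, where 19.7% of all tested genes were called higher and 3.6% lower. Under each of the 4 other scalings 7 fibroblast markers and 4 leukocyte markers were called higher, and no muscle marker was. Of 10 fibroblast markers 7 rose and THY1 fell, and their summed level was 1366 to 1955 FPKM at 0h, 964 to 1730.4 at 24h, 1119 to 2227 at 96h and 3636 to 4314 at 216h, where the 216h tumors overlapped no other group. At 24h and 96h no fibroblast or leukocyte marker was called against 0h. COL1A2 was at a median of 254 FPKM at 0h and 942 FPKM at 216h. Of 12 leukocyte markers 10 could be tested, 5 rose (PTPRC, CSF1R, LYZ, CD74 and LAPTM5) and CD68 fell, with sums of 64.2 to 103 at 0h, 65.2 to 136 at 24h, 81.6 to 105 at 96h and 146 to 234 at 216h. Skeletal muscle, a tissue rich in mitochondria, was represented by 12 markers of which 1 of the 8 tested rose (TNNI2), with sums of 2.47 to 78.1 at 0h, 3.06 to 20.2 at 24h, 3.50 to 35.5 at 96h and 7.51 to 132 at 216h that overlapped, and with PVALB and CKMT2 at 0 in 12 tumors each. Fat (10 markers, 2 tested, none called, UCP1 and RETN at 0 in all 18 tumors) summed to 3.24 to 18.9, 3.02 to 8.01, 4.93 to 237 and 13.7 to 59.9 FPKM in the 4 groups in the same order, and endothelium (10 markers, 6 tested, 1 higher and 1 lower) to 17.0 to 27.4, 17.5 to 22.2, 18.3 to 24.0 and 18.7 to 26.6. Mesothelioma markers (12, of which 7 tested) had KRT8 and KRT18 lower and none higher, and summed to 1617 to 1932, 1462 to 1989, 1788 to 2033 and 1414 to 1575. Both were already called lower by limma at 96h against 0h, KRT8 at -0.56 (adjusted p = 0.00996) and KRT18 at -1.22 (adjusted p = 5.76e-05). VIM was called higher then, at 0.35 (adjusted p = 0.0337). KRT8 is also in the study's list of positive YAP1/TAZ-TEAD effector genes. The part of any of these cells in the changes of the respiratory chain genes was not tested.

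Before 216h no mitochondrial gene passed the test. MT-ND1 was at 25578, 20284, 28183 and 24298 FPKM at 24h and at 24557, 28680.4, 21338, 25691 and 19065 FPKM at 96h. MT-CO1 was at 22986, 22559, 25668 and 22228 FPKM at 24h and at 21299.6, 23876, 18689.8, 20690.0 and 18783 FPKM at 96h. Both groups overlapped the 0h tumors in both genes. At 24h against 0h none of the 13 was called by limma, with a median change of 0.05 and 2 of 13 at an unadjusted p under 0.05, where 0.149% of all tested genes were called lower and 0.00879% higher. At 96h against 0h none was called by limma either, with 5 of 13 at an unadjusted p under 0.05 and a median of -0.15, from -0.26 (MT-ND6) to -0.03 (MT-ND3), where 1.06% of all tested genes were called lower and 0.316% higher. All 13 had a negative sign at 96h, but in 12 of them the 96h tumors overlapped the 0h tumors. Without 96h replicate 2, the 96h tumor with the highest mitochondrial levels, 1 of the 13 was called. Between 96h and 24h limma called none of the 13 (median -0.19, all 13 negative) and none of the nuclear genes, with 9 of 13 and 9 of 80 at an unadjusted p under 0.05 (0.0439% of all tested genes were lower and 0% higher).

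From 96h to 216h the mitochondrial genes passed the test as well. Of the 13 genes 9 were called lower at 216h against 96h and none higher, where 0.747% of all tested genes were lower and 10.3% higher. The median was -0.28, and MT-ND1 (19065 to 28680.4 FPKM at 96h, 15185 to 17619 at 216h) had the largest change, -0.51 ± 0.11 SE, adjusted p = 0.00755. MT-ND6, MT-ND3, MT-ND4L and MT-ND4 were not called, at -0.04, -0.20, -0.15 and -0.25. The count fell to 4 without 96h replicate 2. It was 4 without the trend and 0 without the filter on low values. With the split of tumors by genes listed at 0 as a covariate (all 5 tumors at 96h and 1 of 4 at 216h had few), none of the 13 was called, at nearly the same median of -0.28, while the calls over all genes went from 1175 higher and 85 lower to 43 and 2. In the comparison of 216h with 0h the covariate left 13 of 13 called. Among tumors with many genes at 0 (3 at 216h, 5 at 0h), the 216h tumors were below all 0h tumors in all 13 genes. They were so in 8 of the 80 nuclear genes as well. This split leaves out 216h replicate 1, the tumor that lay within the 0h range in MT-ND3, and fewer tumors separate more easily. The share over all tested genes was not computed, and the genes of a tumor share 1 library.

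Most nuclear members did not pass the test at 216h. Of 80 tested, 7 were called lower (8.75% against the 3.6% of all tested genes) and 3 higher (3.75% against 19.7%), and without 216h replicate 4 the number lower was 4. The median change was -0.09, with a range from -0.54 to 0.82. The median lay below that of all tested genes under each of the 5 scalings, at -0.19 against -0.03 with quantile normalization and at -0.33 against -0.04 with median scaling. By complex the nuclear medians were -0.09 for complex I (37 tested), 0.04 for complex II (5), -0.01 for complex III (9), -0.08 for complex IV (12) and -0.12 for complex V (17). Annotated exon length and change were nearly unrelated over the 80 genes, which share their libraries (Spearman's rho = 0.07), but only 8 of them were under 1000 bases. Over 11373 tested genes rho was 0.16. Their median change was 0.009 in genes under 1000 bases and 0.17 in the others.

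**Figure D4:**
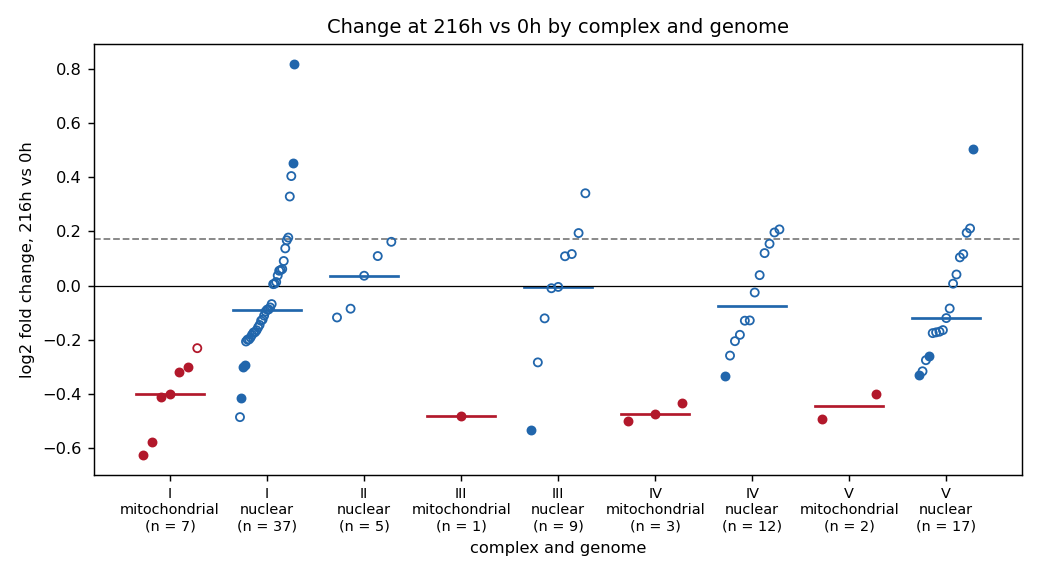
Log2 fold change at 216h against 0h, 1 point a gene, by complex and genome; filled points have an adjusted p under 0.05, solid lines are medians and the dashed line is the median of all tested genes at 0.17. The mitochondrially encoded genes lie between -0.63 and -0.23, and the nuclear genes spread over both signs in each complex.

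Of the 7 nuclear genes that fell 3 belong to complex I, NDUFA11, NDUFA3 and NDUFB2, accessory subunits of its membrane arm. NDUFA3 (chr19:54102728-54108929) was at 243, 242, 228, 253 and 224 FPKM at 0h and at 202, 197, 201 and 173 FPKM at 216h. The groups were apart, at -0.30 ± 0.07 SE, adjusted p = 0.00454. NDUFA11 (chr19:5891276-5904006) was at 72.7, 67.5, 60.3, 67.0 and 62.2 FPKM at 0h and at 51.9, 47.0, 44.2 and 53.8 FPKM at 216h (-0.42 ± 0.09 SE, adjusted p = 0.00361). NDUFB2 (chr7:140690777-140722790) went from 40.9 to 50.8 to 35.4 to 37.5 FPKM (-0.30 ± 0.10 SE, adjusted p = 0.0345), a call that was lost without 0h replicate 2 or 5 or any one of the 216h replicates (adjusted p between 0.054 and 0.0883).

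In complex III, UQCR11 (chr19:1597172-1605490), a very small accessory subunit, was at 60.5, 39.0, 41.8, 42.1 and 54.5 FPKM at 0h and at 33.0, 36.6, 31.2 and 27.9 FPKM at 216h. It fell most of the nuclear genes called, at -0.54 ± 0.15 SE, adjusted p = 0.0147, and missed the threshold without 216h replicate 4, the lowest tumor (adjusted p = 0.0508). COX7A2 of complex IV (chr6:75237675-75250323), the ubiquitous form of subunit VIIa, was at 206, 242, 205, 209.8 and 225 FPKM at 0h and at 154, 185, 176 and 174 FPKM at 216h (-0.34 ± 0.09 SE, adjusted p = 0.013). In complex V, ATP5J2 (chr7:99448475-99466331) was at 785, 751, 756, 768 and 808 FPKM at 0h and at 656, 612, 631 and 687 FPKM at 216h (-0.26 ± 0.07 SE, adjusted p = 0.00917). Neither gene overlapped between the groups. ATP5G1 (now ATP5MC1, chr17:48892765-48895871), which encodes the c subunit of the rotor ring, overlapped: it was at 138, 127, 95.6, 143 and 133 FPKM at 0h and at 89.6, 112, 101 and 98.3 FPKM at 216h (-0.33 ± 0.12 SE, adjusted p = 0.0466), and was lost without 0h replicate 1, 2, 4 or 5 or 216h replicate 1, 3 or 4 (adjusted p between 0.0699 and 0.125). ATP5G2 and ATP5G3, which encode the same mature c subunit, gave 0.21 and 0.04 (-0.05 and -0.20 with median scaling) and were not called.

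The 3 nuclear genes that rose at 216h were ATP5B, NDUFB5 and NDUFA6, and all overlapped between the groups. ATP5B (now ATP5F1B, chr12:56638175-56646068), the catalytic beta subunit of ATP synthase, was at 144, 98.2, 113, 94.5 and 95.9 FPKM at 0h and at 124, 143, 170.0 and 184 FPKM at 216h. The highest 0h tumor, replicate 1, lay above 2 of the 216h tumors, and the change was 0.51 ± 0.17 SE, adjusted p = 0.0391. NDUFB5 (chr3:179604690-179627647), an accessory subunit of complex I, was at 10.2, 14.0, 9.25, 11.5 and 8.79 FPKM at 0h and at 17.2, 13.3, 13.4 and 16.0 FPKM at 216h (0.45 ± 0.14 SE, adjusted p = 0.0255). NDUFA6 (chr22:42085525-42090955), which sits near the quinone site of complex I, was at 1.43, 2.03, 4.55, 1.18 and 3.58 FPKM at 0h and at 5.66, 2.91, 5.61 and 5.93 FPKM at 216h (0.82 ± 0.28 SE, adjusted p = 0.0438). The highest value at 216h came from replicate 4 in ATP5B and NDUFA6 and from replicate 1 in NDUFB5. Without 0h replicate 3, 4 or 5 or 216h replicate 1 or 3, 1 nuclear gene was called higher, and without 216h replicate 4 none was. Under each of the 4 other scalings limma called none of them higher, with 3 nuclear genes higher at an unadjusted p under 0.05 when rescaled without the mitochondrial genes, while the number called lower rose to 12 without the mitochondrial genes in the sum and to 34 with median scaling.

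**Figure D5:**
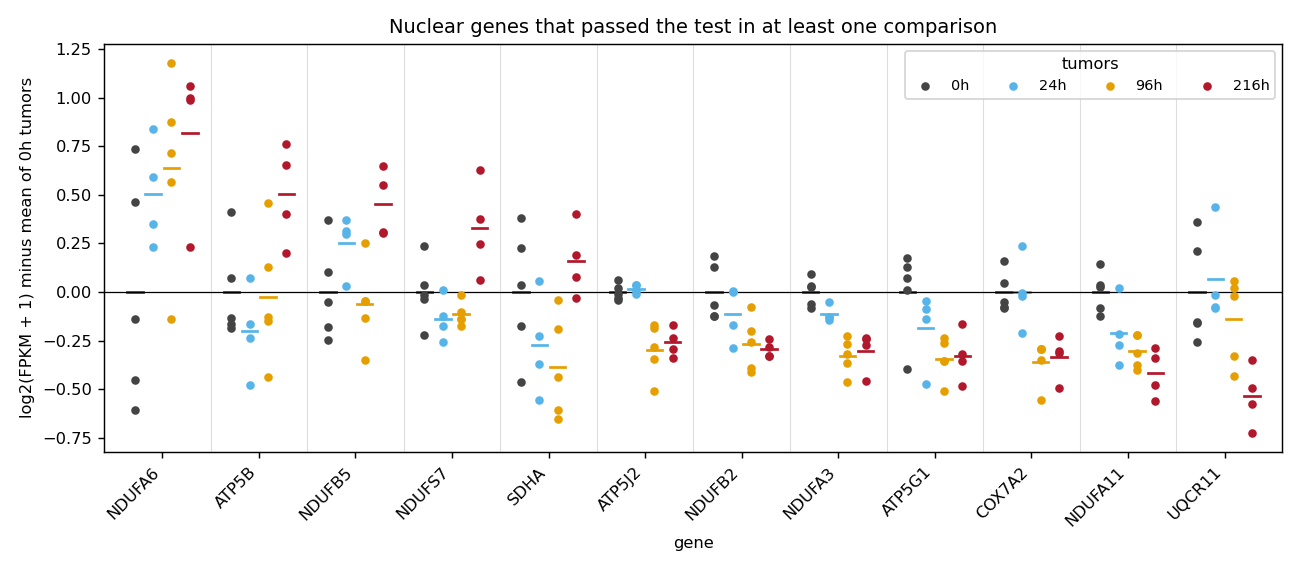
Each point is 1 tumor, with log2(FPKM + 1) minus the mean of the 0h tumors on the vertical axis, for the 12 nuclear genes that passed the test in at least 1 comparison; short lines are group means. On the left the 216h tumors overlap the 0h tumors. They lie above the line there except in SDHA, where 216h replicate 4 lies just below it. For ATP5J2, NDUFA3 and COX7A2 the 96h and 216h tumors both lie below all 0h tumors.

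Of the 7 genes lower at 216h, 3 were already lower at 96h, and they were the 3 nuclear genes called at that time, NDUFA3, COX7A2 and ATP5J2 (3.75% of 80, where 1.06% of all tested genes were called lower and 0.316% higher). These comparisons share the 0h tumors. NDUFA3 was at 190.1, 197, 184, 203 and 172 FPKM at 96h, -0.33 ± 0.07 SE, adjusted p = 0.015 against 0h. COX7A2 was at 177, 177, 147, 177 and 170.0 FPKM (-0.36 ± 0.09 SE, adjusted p = 0.046), and ATP5J2 at 679.9, 688, 544, 608 and 635 FPKM (-0.30 ± 0.06 SE, adjusted p = 0.0214). All 5 tumors at 96h were below all 5 at 0h in the 3 genes, and below all 4 at 24h, and their 96h and 216h levels overlapped. The 3 genes were picked by their call in these same tumors. Of the 80 nuclear genes, 5 lay below in this way at 96h against 0h and 0 above, and the share among all tested genes was not computed. Leaving out 0h replicate 1 or 5 or 96h replicate 3 or 4 left 1 nuclear gene called lower, as did fitting only the 2 groups. None was called lower when tumors were rescaled without the mitochondrial genes, by quantile normalization or by the length-weighted sum, without the trend, or with the covariate for genes at 0. At 24h limma called no nuclear member, with 8 of 80 at an unadjusted p under 0.05, where 0.149% of all tested genes were called lower and 0.00879% higher.

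From 96h to 216h, 3 nuclear genes were called higher and none lower (3.75% of 80 against 10.3% of all tested genes higher). SDHA (chr5:218241-256700), the flavoprotein of complex II that oxidizes succinate, was at 15.2, 17.2, 14.7, 20.6 and 22.9 FPKM at 96h and at 25.1, 31.6, 27.2 and 23.2 FPKM at 216h. The groups did not overlap, at 0.55 ± 0.17 SE, adjusted p = 0.0481, but the 0h tumors (16.9, 31.1, 24.3, 20.8 and 27.8 FPKM) covered both. NDUFS7 (chr19:1383527-1395589), which carries the last iron-sulfur cluster of complex I, was at 4.06, 4.31, 4.18, 4.64 and 4.19 FPKM at 96h and at 5.77, 4.97, 7.82 and 6.41 FPKM at 216h (0.44 ± 0.12 SE, adjusted p = 0.0225), and NDUFB5 at 8.11 to 12.8 FPKM and then 13.3 to 17.2 FPKM (0.52 ± 0.14 SE, adjusted p = 0.0233). Without 96h replicate 1, 2 or 3 or 216h replicate 3, 1 gene was called, without 216h replicate 4 none was, and none was under the 4 other scalings.

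The catalytic nuclear subunits described here were otherwise not called at 216h. In complex I, NDUFS1 and NDUFV1, which carry the electron path from NADH, gave -0.17 and 0.14. In complex II, SDHA, SDHB and SDHC gave 0.16, 0.11 and 0.04, and the row of SDHD proper gave -0.12. A second row with the symbol SDHD covers chr11:112086824-112193626, overlaps it and is annotated as another gene, so the reads of the pair may be split. In complex III, the core proteins UQCRC1 and UQCRC2 and the Rieske protein UQCRFS1 gave 0.11, -0.28 and -0.01. In complex V, ATP5A1 and ATP5C1, the alpha and gamma subunits (now ATP5F1A and ATP5F1C), gave 0.12 and -0.08. Adjusted p-values of these ran from 0.146 to 0.966. With median scaling those with a positive sign turned negative, SDHA to -0.09, SDHB to -0.14, SDHC to -0.20, NDUFV1 to -0.11, UQCRC1 to -0.14 and ATP5A1 to -0.14. NDUFS7 was close to the threshold at 0.33 (adjusted p = 0.0534).

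Where a subunit has tissue forms, the ubiquitous one had the higher FPKM. A value of 0 in this table says only that the gene is listed at 0, since it holds no counts and capture may miss a gene. COX4I1 was at 39.3 to 58.5 FPKM over the 18 tumors and COX4I2, the lung and hypoxia form, at 0 to 0.323. COX6A1 was at 52.9 to 90.1 FPKM and the muscle form COX6A2 at 0 to 0.588. COX7A1 (muscle and heart), COX7B2 and COX8C were listed at 0 in all 18 tumors, against 147 to 256 FPKM for COX7A2, 57.4 to 97.5 for COX7B and 35.2 to 72.4 for COX8A. The 0 of COX7A1 cannot be read as a lack of muscle cells, as capture may miss the gene. NDUFA4, now counted with complex IV, was at 64.0 to 115 FPKM and its hypoxia-linked relative NDUFA4L2 at 0 to 1.70. COX6B1 was at 81.3 to 116 FPKM, while the testis form COX6B2 was at 14.3 in 24h replicate 2, 3.78 in 24h replicate 3 and 5.70 in 96h replicate 4, and at or below 1.22 FPKM in all others. UQCRH was at 35.3 to 65.3 FPKM and its near-identical copy UQCRHL at 0.332 to 1.37, where reads of one may be counted for the other.

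The 11 nuclear rows under the filter were COX4I2, COX6A2, COX7A1, COX7B2, COX8C, NDUFA4L2, the ATP5E copy ATP5EP2, ATP5L2, the read-through genes ATP5J2-PTCD1 and NDUFC2-KCTD14, and one of the rows named NDUFA12, which stayed at or below 0.628 FPKM. The members not named so far were not called in any comparison.

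Nuclear respiratory genes are known targets of NRF1, of GABP (an ETS factor) and of YY1, and their sites were looked for in the promoters. RefSeq promoters (GRCh38.p14, 250 bases before to 50 after the start) were found for 70 of the 91 nuclear rows, at 68 promoters. The letters GCATGCGC, the core of the NRF1 site, stood on either strand in 13 of 68 (19.1%) against 3.27% of all 27305 promoters. CCGGAAG, an ETS site, stood in 19 (27.9%) against 10.7%, and AAGATGGC, a YY1 site, in 11 (16.2%) against 3.03%. The full palindromic NRF1 motif, which contains the core, stood in 4 (5.88%) against 1.36%. A gene that rose and a gene that fell are shown, with the letters found in capitals, on the strand of the gene: NDUFA6 at chr22:42090723-42091022 (minus strand), with the NRF1 core and YY1 letters, and NDUFA3 at chr19:54102605-54102904 (plus strand), with YY1 letters.
NDUFA6: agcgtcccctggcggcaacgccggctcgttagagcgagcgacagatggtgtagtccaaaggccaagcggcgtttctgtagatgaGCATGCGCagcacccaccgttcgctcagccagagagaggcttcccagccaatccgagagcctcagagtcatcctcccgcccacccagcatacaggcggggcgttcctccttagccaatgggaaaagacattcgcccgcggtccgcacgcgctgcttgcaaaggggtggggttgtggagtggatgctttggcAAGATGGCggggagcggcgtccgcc
NDUFA3: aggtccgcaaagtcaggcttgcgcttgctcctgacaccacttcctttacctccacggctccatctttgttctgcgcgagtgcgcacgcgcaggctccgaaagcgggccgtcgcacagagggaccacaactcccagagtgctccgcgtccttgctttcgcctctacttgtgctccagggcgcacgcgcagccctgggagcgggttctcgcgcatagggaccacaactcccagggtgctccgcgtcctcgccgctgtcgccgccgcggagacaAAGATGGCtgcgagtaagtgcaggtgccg
Of the 7 genes that fell at 216h 6 had a promoter in the table, and of these 1 held the ETS letters (UQCR11), 1 the YY1 letters (NDUFA3) and none the NRF1 core. Of the 3 that rose only NDUFA6 had one. The matches describe these windows and are not sites shown to be bound.

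Other genes around the chain were read from lists of known members at 216h against 0h, beside the 19.7% of all tested genes called higher and the 3.6% called lower. Of 12 tested regulators of mitochondrial biogenesis, 6 rose and none fell, with a median of 0.50. They were PPRC1, a PGC-1 related coactivator, at 0.50 (adjusted p = 0.00936), the nuclear receptor ESRRA at 0.58 (adjusted p = 0.0263), and the broad transcription factors YY1 at 0.51 (adjusted p = 0.0233), HCFC1 at 0.33 (adjusted p = 0.0145), SP1 at 0.67 (adjusted p = 0.002) and CREB1 at 0.94 (adjusted p = 0.0069). NRF1 was not called, at 0.57 (adjusted p = 0.08), nor GABPA, at 0.42 (adjusted p = 0.0559). The 6 calls became 4 when rescaled without the mitochondrial genes and 2 with median scaling, and the median stayed above 0 under all 5 scalings.

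Genes that transcribe and keep mitochondrial DNA had 2 of 18 higher and 0 lower (median 0.11). The 2 were POLG, the mitochondrial DNA polymerase, at 0.60 (adjusted p = 0.0181), and the nuclease and helicase DNA2 at 1.06 (adjusted p = 0.0187). The mitochondrial RNA polymerase POLRMT gave 0.33 (adjusted p = 0.236), and TFAM, which packages mitochondrial DNA and starts its transcription, was at 6.59 FPKM at 0h and 6.30 FPKM at 216h (medians), a change of -0.07 (adjusted p = 0.795). Genes that process mitochondrial RNA had 1 of 19 higher and 0 lower (median -0.08), with FASTK at 0.58 (adjusted p = 0.0316) called, and LRPPRC and SLIRP, which stabilize mitochondrial messengers, at 0.02 (adjusted p = 0.958) and -0.13 (adjusted p = 0.596). With median scaling the RNA handling list had 5 lower and none higher, and the median of the transcription list turned to -0.07.

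Assembly factors of the complexes had 2 of 48 higher and 3 lower (median 0.03). NDUFAF1, at 0.51 (adjusted p = 0.0244), and PET117, at 0.54 (adjusted p = 0.0363), rose, and TMEM126A, TMEM126B and UQCC3 fell, TMEM126A at -0.71 (adjusted p = 0.00626) and TMEM126B, which builds the membrane arm of complex I, at -0.72 (adjusted p = 0.0258). Mitochondrial ribosomal proteins had 1 of 78 higher and 4 lower (median -0.11). Electron carriers and subunits outside the naming rule had 2 of 17 higher and 0 lower (median 0.11), with ETFB at 0.46 (adjusted p = 0.0162) and COQ6 at 0.61 (adjusted p = 0.0342) called, and CYC1 and CYCS, the cytochromes c1 and c, at -0.06 (adjusted p = 0.739) and -0.37 (adjusted p = 0.0604). The citric acid cycle had 2 of 18 higher and 0 lower (median 0.09), with IDH2 at 0.69 (adjusted p = 0.00135) and OGDH at 0.31 (adjusted p = 0.033). With median scaling the ribosomal proteins had 23 lower and none higher, the assembly factors 7 lower and none higher, the carriers 3 lower and none higher and the cycle 3 lower and 1 higher. The medians of the assembly factors, the carriers and the cycle turned negative with it, and that of the ribosomal proteins was negative under all 5 scalings. Against 0h at 96h, 1 mitochondrial ribosomal protein was called lower and no other gene of these 7 lists was called.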

How the data were processed

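Gene expression was measured in 18 tumors from total RNA (miRNeasy), with KAPA RNA HyperPrep libraries and KAPA HyperCap target enrichment. The deposited table holds FPKM that the authors computed for 20555 gene rows; STAR and GRCh38 are named in the submitters' processing notes, and the tool that counted reads, its annotation and the handling of mouse reads are not given in the sources used here. FPKM keep no depth. Capture probes can enrich genes unequally, so levels of different genes also carry probe efficiency.

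The 4 empty cells were read as 0. The 11379 genes that reached 1 FPKM in 4 or more tumors were fitted on log2(FPKM + 1) with limma 3.58.1 in R 4.3.3, with trend, over all 18 tumors and 4 groups at once, and p-values were Benjamini-Hochberg adjusted over all of them (threshold 0.05). No count test was used. The fit was also run on simulated data, with independent noise and changes larger than any called in the respiratory chain genes. That run does not show how well changes of their size are called. Animals were separate, so p-values measure the spread among these tumors. Replicates within groups were numbered in order of deposition and correlated at r = 0.970 to 0.991 over tested genes.

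Named were all 13 mitochondrial genes, in each complex the 3 largest rises and falls among called genes with groups that did not overlap at 216h against 0h, 2 each way in the other comparisons, a set of catalytic and isoform genes (1 of which is not reported here), and YAP1; called genes outside this rule were added after their values were seen. Members and lists were chosen with earlier results of these data known. Exon lengths and strand came from GENCODE 29, promoters from RefSeq. Start coordinates, counted from 0 in the table, were raised by 1. Alternatives were 4 other scalings, the pseudocount, the filter, the groups fitted, the trend, a covariate for genes at 0 and leaving out each tumor.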

Additional observations from a re-analysis of the deposited data

Results flagged for a closer look

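In 5 of 120 groups of 4 or 5 tumors examined for the 25 called or mitochondrially encoded genes, YAP1 and the means of the chain, 1 tumor stood apart from the others by its gap over the range of the group, where chance gives about 5%. COX7A2 at 96h was 147 FPKM in replicate 3 against 170.0 in the nearest tumor. UQCR11 at 24h was 63.8 FPKM in replicate 4 against 46.5, and NDUFA3 at 24h was 229 FPKM in the same tumor against 217. NDUFA6 at 216h was 2.91 FPKM in replicate 2 against 5.61, the low value among the 4 tumors in which the gene was called higher. MT-ND2 at 216h was 7294 FPKM in replicate 1 against 7853, on the side of the fall.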

How the results depend on the processing

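No paired analysis was possible because the labels number no replicates across groups and each animal gave 1 tumor. Counts as reported were 12 mitochondrial, 3 nuclear higher and 7 nuclear lower at 216h against 0h, 0, 0 and 3 at 96h against 0h, and 9, 3 and 0 at 216h against 96h. In the same order, rescaling without the mitochondrial genes gave 13, 0 and 12, then 0, 1 and 0, then 10, 0 and 1. Median scaling gave 13, 0 and 34, then 0, 0 and 2, then 11, 0 and 5. Quantile normalization gave 0, 0 and 16, then 0, 1 and 0, then 0, 0 and 2. The length-weighted sum outside the mitochondrial genome, chosen after seeing the data, gave 13, 0 and 20, then 0, 0 and 0, then 11, 0 and 4. Without a filter on low values, 1 and 0 mitochondrial genes were called at 216h against 0h and against 96h; the cause was not tested. Fitting only the 2 groups left 1 nuclear gene higher at 216h and 1 lower at 96h against 0h. Without the trend, 4 mitochondrial genes were called at 216h against 96h and 0 nuclear genes lower at 96h. With the covariate for genes at 0, 0 mitochondrial and 0 nuclear genes were called at 216h against 96h and 0 at 96h against 0h, with mitochondrial medians of -0.28 and -0.18 (-0.28 and -0.15 as reported). Leaving out 1 tumor at a time gave, at 216h against 0h, 11 to 13 mitochondrial, 0 to 4 nuclear higher and 4 to 7 nuclear lower, at 96h against 0h 0 to 1, 0 to 0 and 1 to 3, and at 216h against 96h 4 to 10, 0 to 4 and 0 to 0. A pseudocount of 0.1 and a filter at 5 FPKM moved no count of the 3 comparisons by over 1.5 times. Signs of single genes at 216h against 0h turned for SDHA with median scaling (-0.090), quantile normalization (-0.010) and the length-weighted sum (-0.017), under quantile normalization for MT-CO2 (0.032), MT-CO1 (0.036) and MT-ND3 (0.119), and for YAP1, which stood at 0.000410, under the 4 scalings (-0.104, -0.226, -0.210 and -0.160) and without 1 tumor (-0.118 to 0.119). FPKM keep no depth, so what counting error adds is not known.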

Other observations

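Ratios between mitochondrial messengers within a tumor do not change when a tumor is multiplied by 1 factor, though they do under quantile normalization. MT-ND2 stood at 0.470 to 0.529 of MT-CO1 at 0h, 0.475 to 0.619 at 24h, 0.490 to 0.558 at 96h and 0.413 to 0.479 at 216h, and MT-ND3 at 0.745 to 0.898, 0.804 to 0.874, 0.859 to 1.001 and 0.896 to 1.031 of it. The 216h tumors overlapped those at 0h in both ratios, by 1 or more tumors, and lay below all 96h tumors in MT-ND2 against MT-CO1. MT-ND6 against MT-CO1, light strand over heavy strand, was 0.184 to 0.238, 0.183 to 0.216, 0.179 to 0.238 and 0.215 to 0.278, and its 216h and 0h groups overlapped too.

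NDUFV2, a subunit of the NADH-oxidizing arm of complex I, was at 65.3 FPKM in 0h replicate 2 and at 20.2 to 41.5 FPKM in the other 17 tumors. It was chosen for mention after its values were seen.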
